A study of Drosophila melanogaster with 6 samples.

Results

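The glutathione S-transferase genes of Drosophila melanogaster were examined in whole adult male flies with and without functional Estrogen-related receptor (ERR), the fly's only member of a family of orphan nuclear receptors. The genes were taken by name, as rows of the deposited table whose gene name starts with Gst followed by a class letter (D, E, O, S, T or Z). This gave 19 of 13035 genes, 8 of the delta class, 10 of the epsilon class and the sigma class gene GstS1. No row of the omega, theta or zeta class carried such a name. A current name table showed 14 further glutathione S-transferase genes that the deposited table lists under CG numbers, and these are described apart. Of the 35 genes with such a name in that name table, 33 had a row, and GstD4 and GstD6 were not analysed here.

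Both groups had the genotype yw, hsFLP;; dERR[conditional] / dERR2, so each fly carried a conditional dERR allele over the mutant allele dERR2 and hsFLP, an FLP recombinase under a heat shock promoter. The dERR-/- group received 1 h of heat on each of days 5 and 6 AEL (after egg laying), which induces hsFLP, control flies were not heated, and all flies were collected on day 6 of adult life. The earlier heat treatment and the loss of ERR therefore go together in the groups and cannot be told apart. Whole flies were used, with 3 libraries a group, and nothing in the labels says whether the libraries came from separate cultures or crosses, so p-values measure the spread between these libraries, which may be technical.

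Poly(A)-selected RNA was sequenced, and the deposited normalized counts correspond to 13987814 to 16102936 gene-assigned reads a library (reads divided by a size factor for each library, so that 1 read is worth 0.926 to 1.07 normalized counts). ERR itself fell by 2.03 ± 0.13 on the log2 scale (SE; adjusted p = 3.58e-06, limma), or 4.09-fold, without overlap between the groups. Of the tissue markers checked, 9 testis genes summed to 36305 to 52254 normalized counts over all libraries and the female yolk protein genes Yp1, Yp2 and Yp3 to 89.1 to 211, as in males. All 9 accessory gland markers were lower in the mutant (adjusted p under 0.05, limma), against 9.47% of all genes. Their sums were 36867 to 41033 in mutant and 84262 to 102027 in control libraries.

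Glutathione S-transferases are dimeric enzymes that join the tripeptide glutathione to electrophilic compounds, which makes them easier to excrete. They act on insecticides, plant toxins and products of lipid peroxidation, and some members also reduce peroxides or isomerize metabolites. In insects the delta and epsilon classes form large gene clusters and are known for detoxification, whereas the sigma class enzyme of the fly is abundant in flight muscle.

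In the mutant 9 of the 19 genes fell and 0 passed the test as higher. They were GstD5, GstD7 and GstD10 of the delta class and GstE3, GstE5, GstE6, GstE7, GstE8 and GstE9 of the epsilon class. The falls of the 3 delta genes were 1.89-fold to 2.17-fold and those of the 6 epsilon genes 1.29-fold to 1.61-fold. The most abundant gene per length, GstD1, was not among them. Across all genes 9.47% were called lower and 4.73% higher (limma on log2(normalized count + 1), adjusted p under 0.05 over 13035 genes), against 47.4% and 0% of the Gst genes. The median log2 change was -0.36 over the 19 genes and 0.0029 over all genes.

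Scaling each library to the same total changed this to 7 genes lower and 1 higher, and quantile normalization gave the same counts. Over all genes the same total scaling turned 1234 lower and 617 higher calls into 992 and 1293, quantile normalization gave 1080 and 919, and scaling to 92 ribosomal protein genes gave 2069 and 206. In the authors' deposited table, which rests on DESeq2, 9 of the Gst genes were lower and 1 was higher at an adjusted p under 0.05, against a background of 9.04% and 4.49% in that table. Of the 19 genes, 11 had every mutant library below every control library and 2 had every mutant library above, against 16.9% and 15.7% of all genes. At an unadjusted p under 0.05 (limma) 1 of the 19 genes was higher, GstS1, against 1536 of all 13035 genes.

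**Figure D1:**
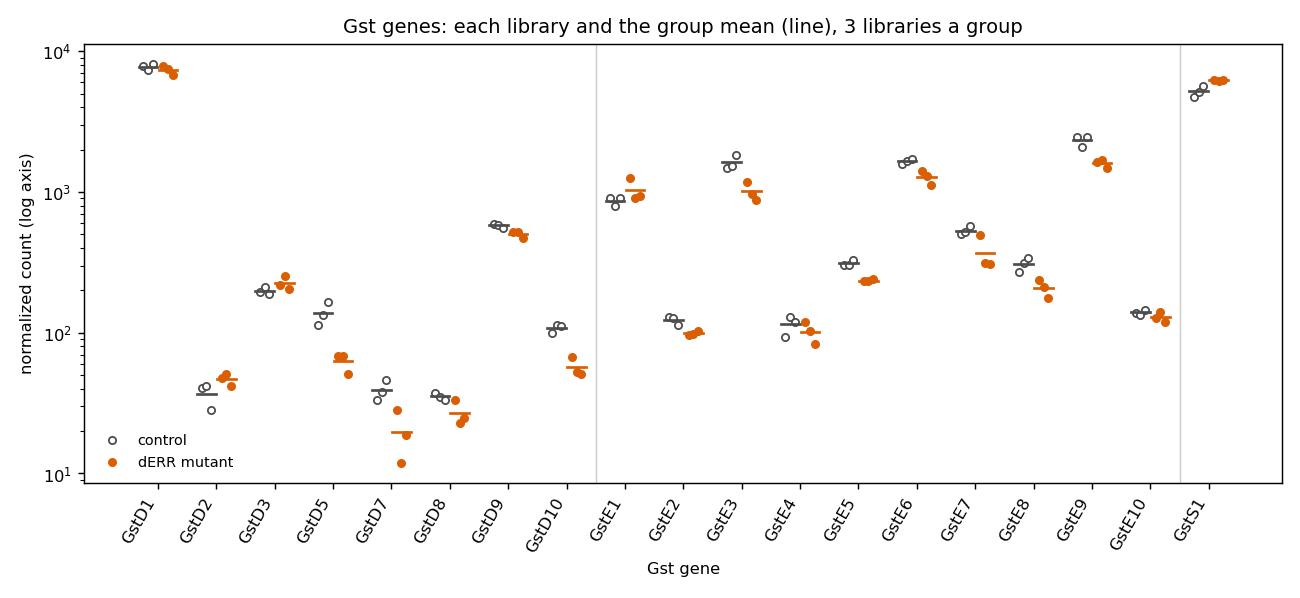
Normalized counts (log axis) of the 19 Gst genes in each of 3 control libraries (open circles) and 3 mutant libraries (filled circles), with group means as lines. Levels run from 11.9 in a mutant library for GstD7 to 8119 in a control library for GstD1, and the filled circles lie below the open ones for GstD5, GstD7, GstD9, GstD10, GstE2, GstE3 and GstE5 to GstE9.

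The delta genes lie in a single cluster on chromosome arm 3R, from GstD10 to GstD8 at 8190496 to 8206537 (dm3). The cluster spans 16.04 kb, and no other gene of the table lies inside it. GstD10, GstD9 and GstD1 are on the minus strand and the other 5 on the plus strand. Only 3 of the 8 genes, GstD1, GstD9 and GstD10, have more than 1 distinct exon in the reference annotation, counted over all transcripts.

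GstD1 (FBgn0001149; 8193269 to 8194987) encodes an enzyme known for DDT breakdown and is widely used as a readout of oxidative stress signalling. It had 7796, 7299.8 and 8119 normalized counts in controls and 7899, 7428 and 6781 in mutants. The 2 groups overlapped, and the means were 7738 ± 412 and 7369 ± 561 (SD, n = 3 each). Its log2 change was -0.07 ± 0.08 (SE), with a 95% interval from -0.25 to 0.11 and an adjusted p of 0.638 (limma). With scaling to the library total the estimate became positive (0.01). GstD1 supplied 86.3 to 87.8% of the summed delta class level in control and 88.3 to 88.9% in mutant libraries.

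GstD5 (FBgn0010041; 8201486 to 8202136) showed the largest fall of the 19 genes. It stood at 114, 133 and 165 normalized counts in controls and at 68.5, 68.6 and 50.8 in mutants. Every mutant library lay below every control library, with means of 138 ± 25.7 and 62.6 ± 10.3 (SD, n = 3 each). The 2.17-fold fall, 1.12 ± 0.17 on the log2 scale (SE), had an adjusted p of 1.11e-03 (limma).

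GstD10 (FBgn0042206; 8190496 to 8191440) is the first gene of the cluster and lies on the minus strand. Its normalized counts were 99.3, 114 and 111 in control and 67.5, 52.7 and 50.8 in mutant libraries. The groups did not overlap, and the fall was 0.92 ± 0.15 (log2, SE) at an adjusted p of 1.55e-03 (limma). The 1.89-fold difference came with 51 to 123 reads per library.

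GstD7 (FBgn0010043; 8204261 to 8204977) was measured with only 12 to 46 reads per library. Its normalized counts were 33.1, 38.0 and 46.3 in controls and 28.4, 11.9 and 18.9 in mutants. The mutant values spread most among all the Gst genes, with a coefficient of variation (SD over mean) of 41.8%. The fall of 1.02 ± 0.29 (log2, SE) had an adjusted p of 3.97e-02 (limma), which did not hold without any one library other than mutant 1 or under quantile normalization (adjusted p from 5.14e-02 to 0.152 in those fits).

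The remaining delta genes were not called. GstD9 (FBgn0038020), which lies between GstD10 and GstD1, had 588, 586 and 559 normalized counts in control and 519.7, 523 and 473 in mutant libraries. Its groups did not overlap, and its log2 change was -0.19 ± 0.08 (adjusted p = 0.137, limma). GstD9 and GstD1 overlap by 18 bases on the same strand, and GstD1 had 1395% of the level of GstD9, so the value of GstD9 is uncertain to the extent that reads of the shared end were counted for it. GstD8 (FBgn0010044) changed by -0.39 ± 0.20, with a 95% interval from -0.83 to 0.06.

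GstD2 and GstD3, side by side in the middle of the cluster, were the delta genes with positive estimates. GstD2 (FBgn0010038) had 40.6, 41.7 and 28.2 normalized counts in control and 48.0, 50.7 and 41.8 in mutant libraries. These groups were separated by a margin smaller than 1 read, and the log2 change was 0.36 ± 0.19 (95% interval -0.07 to 0.79; adjusted p = 0.281, limma). GstD3 (FBgn0010039) changed by 0.18 ± 0.11 (95% interval -0.06 to 0.42). Within the 8 delta genes the log2 changes therefore ran from -1.12 to 0.36, with 3 lower (37.5%), 0 higher and a median of -0.29. Over all genes 9.47% were lower and 4.73% higher, so 0 higher among 8 genes says little about them. By limma 0 of these 8 genes had an unadjusted p under 0.05 as higher, and 0 were higher in the authors' deposited table.

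**Figure D2:**
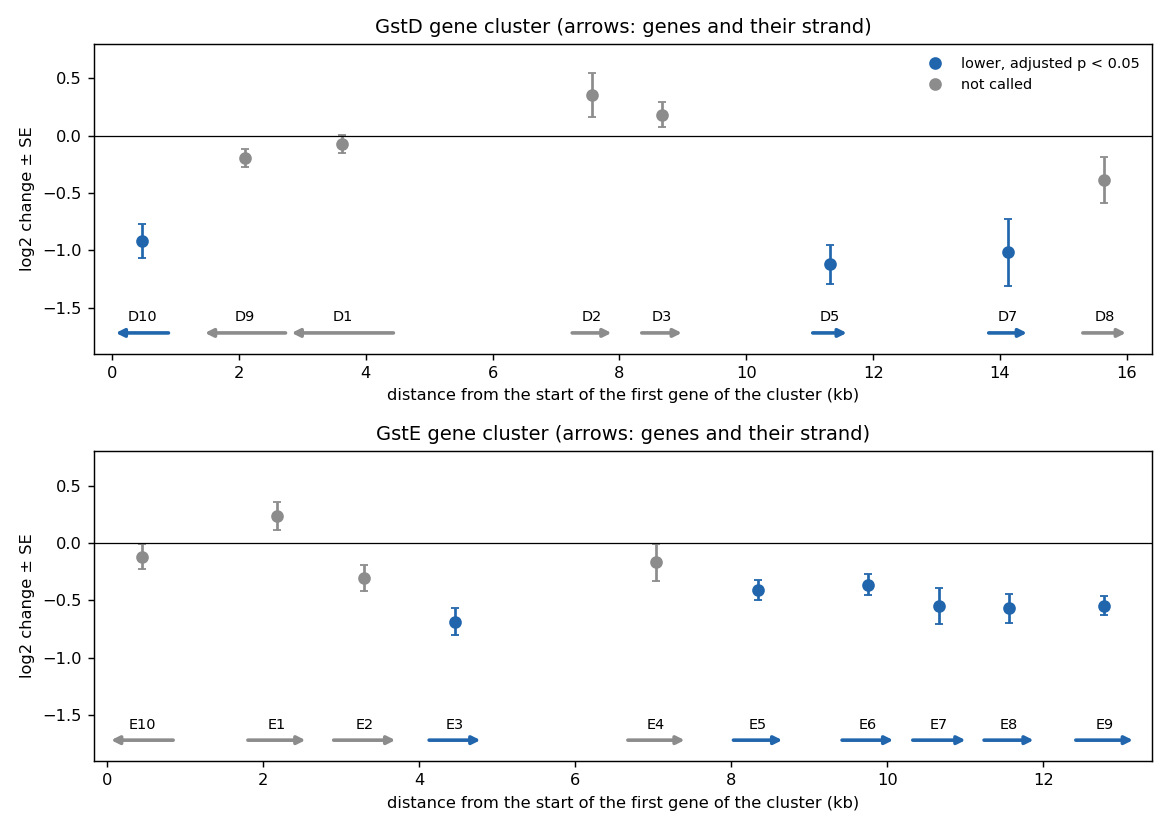
Log2 change (mutant minus control, ± SE) of each delta gene (top) and epsilon gene (bottom) against its distance in kb from the start of the first gene of its cluster, with arrows for the genes and their strand and blue for genes called lower. The called genes of the delta cluster are GstD10 at its first end, GstD5 and GstD7. GstD5 and GstD7 follow each other only among the genes with a row, because GstD4 and GstD6 had none and are not drawn. Those of the epsilon cluster are GstE3 and the 5 adjacent genes from GstE5 to GstE9.

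The epsilon genes form a second cluster, on chromosome arm 2R at 14284143 to 14297340 (dm3), 13.2 kb from GstE10 to GstE9. GstE10 is on the minus strand and the other 9 are on the plus strand. Of the 10 genes 6 fell (60%) and 0 were called higher, against 9.47% and 4.73% of all genes. The median log2 change was -0.39. None was higher at an unadjusted p under 0.05 (limma), against 1536 of all 13035 genes, or in the authors' deposited table, against 4.49%. With such shares, 0 higher among 10 genes says little about them. The summed level of the 10 genes was 7595 to 8535 normalized counts in control and 5429 to 6791 in mutant libraries, so that the groups did not overlap. As a share of all normalized counts this was 0.0509 to 0.0566% in control and 0.0380 to 0.0469% in mutant libraries. The sum leaves out the epsilon genes listed under CG numbers. Of those GstE12 (CG16936) had the highest level, with means of 4913 normalized counts in control and 4216 in mutant libraries. It was not called (log2 change -0.22 ± 0.08, SE; adjusted p = 0.117, limma).

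GstE9 (FBgn0063491; 14296516 to 14297340) had the highest level per length of the 10 genes, at 2960 normalized counts per kb of transcript in control flies. Its normalized counts were 2448, 2102 and 2447 in controls and 1629, 1684 and 1471 in mutants. No mutant library reached the lowest control library. The 1.46-fold fall, 0.55 ± 0.09 on the log2 scale (SE), had an adjusted p of 1.29e-03 (limma). GstE9 overlaps the immune adaptor gene imd by 45 bases on opposite strands, and imd had 16.4% of its level.

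GstE3 (FBgn0063497; 14288222 to 14288972) had the largest fall of the 10 genes. It dropped from 1485, 1530 and 1843 normalized counts in control to 1183, 972 and 873 in mutant libraries. The difference was larger than the spread within each group, at 1619 ± 195 against 1009 ± 159 (SD, n = 3 each). The log2 change was -0.69 ± 0.12 (SE; adjusted p = 2.36e-03, limma), a 1.61-fold fall.

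GstE3 is separated from the other called genes by GstE4 (FBgn0063496), which was not called. GstE4 averaged 114 ± 18.5 and 102 ± 17.5 normalized counts (SD, n = 3 each), with overlapping groups and a log2 change of -0.17 ± 0.16 (95% interval -0.53 to 0.19). Beyond GstE4, the 5 genes from GstE5 to GstE9 follow each other on the same strand and were all called lower.

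GstE5 (FBgn0063495; 14292125 to 14292843) had the smallest spread between mutant libraries of the called genes, with a coefficient of variation of 1.49%. Its control libraries were at 303, 304 and 330.3 normalized counts and its mutant libraries at 233, 233 and 239. It fell by 0.41 ± 0.09 (log2, SE), 1.33-fold, at an adjusted p of 8.12e-03 (limma).

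GstE6 (FBgn0063494; 14293518 to 14294266) was at 1576, 1648 and 1720.0 normalized counts in control and at 1418, 1307 and 1129 in mutant libraries. With a fall of 0.36 ± 0.09 (log2, SE; adjusted p = 1.92e-02, limma), or 1.29-fold, it changed least among the called genes. The call ended without control 2, control 3 or mutant 3 and with scaling to the library total (adjusted p from 5.26e-02 to 9.08e-02).

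GstE7 (FBgn0063493; 14294425 to 14295193) differed most between mutant libraries among the 10 genes. Its normalized counts were 499.6, 519 and 574 in control and 491, 315 and 306 in mutant libraries, so mutant 1 lay close to the control libraries. The fall of 0.55 ± 0.16 (log2, SE) had an adjusted p of 4.09e-02 (limma). It was not called without any one library other than mutant 1, nor with scaling to the total, quantile normalization or a robust variance prior (adjusted p from 5.32e-02 to 0.152).

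GstE8 (FBgn0063492; 14295339 to 14296067) was at 270.1, 314 and 341 normalized counts in control and at 237, 209.8 and 177 in mutant libraries. It fell by 0.57 ± 0.13 (log2, SE; adjusted p = 1.13e-02, limma), or 1.48-fold, with no overlap. The call ended without control 3 (adjusted p = 6.38e-02).

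GstE1, GstE2 and GstE10, at the start of the cluster, were not called. GstE1 (FBgn0034335; 14285898 to 14286728) was the single one of these 10 epsilon genes with a positive estimate, at 909, 788 and 901 normalized counts in control and 1259, 899 and 929 in mutant libraries. The groups overlapped and mutant 1 stood above the other libraries, and the log2 change was 0.23 ± 0.12 (95% interval -0.04 to 0.50; adjusted p = 0.257, limma). GstE2 (FBgn0063498) had a log2 change of -0.31 ± 0.11 without overlap between groups (adjusted p = 0.109, limma), and GstE10 (FBgn0063499) one of -0.12 ± 0.11 with overlap.

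GstS1 (FBgn0010226; chromosome arm 2R, 12980751 to 12987006, dm3), the sigma class enzyme, is known from indirect flight muscle, where it conjugates products of lipid peroxidation. It had 4758, 5125 and 5703 normalized counts in controls and 6277, 6177 and 6217 in mutants. All mutant libraries were above all control libraries, and the mutant libraries differed by less than in any other Gst gene, with a coefficient of variation of 0.805%. The log2 change was 0.26 ± 0.08 (SE; 95% interval 0.09 to 0.44), a ratio of 1.20, and its adjusted p of 0.0516 (limma) missed the threshold. The authors' deposited table gave 0.26 with an adjusted p of 0.0269. The gene was called higher in 5 of 15 alternative fits (adjusted p from 1.31e-02 to 4.59e-02), 3 of them other scalings, 1 with a robust variance prior and 1 without control 3. Under the remaining scaling, to ribosomal protein genes, its log2 change was 0.11 ± 0.11 (SE; adjusted p = 0.562, limma).

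Flight muscle markers moved in the same direction as GstS1. Of 10 such genes 7 rose (70%) and 0 fell, against 4.73% and 9.47% of all genes. Those that rose included the flight muscle actin Act88F (2.11 ± 0.09, log2, SE). Also at an unadjusted p under 0.05 by limma, and in the authors' deposited table, 0 of the 10 were lower. The summed level of the 10 markers was 123527 to 144185 normalized counts in control and 155209 to 191312 in mutant libraries. Their part in the change of GstS1 was not tested. In RNA of whole flies, fewer cells of a type and less RNA per cell cannot be told apart.

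**Figure D3:**
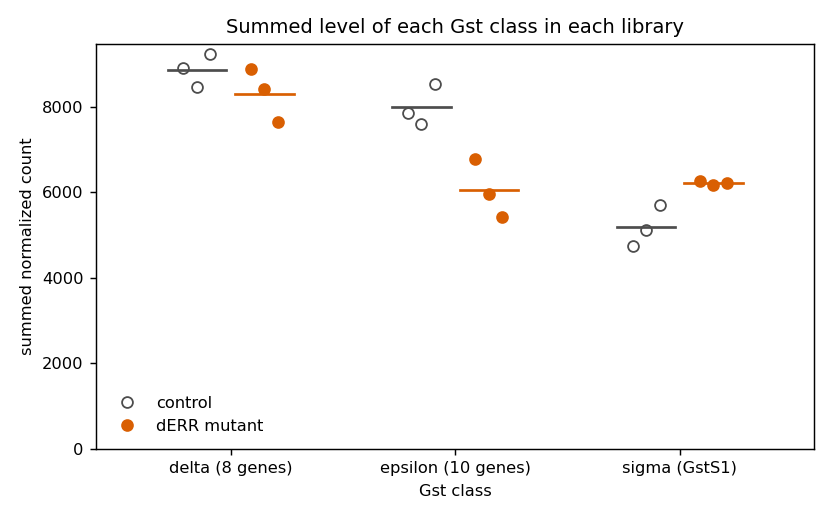
Summed normalized count of the delta class (8 genes), the epsilon class (10 genes) and GstS1 in each control library (open circles) and mutant library (filled circles), with group means as lines. Genes listed under CG numbers, GstE12 among them, are not in the sums. The groups overlap for the delta class, are lower in the mutant for the epsilon class (5429 to 6791 against 7595 to 8535) and higher for GstS1 (6177 to 6277 against 4758 to 5703).

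All 19 genes together made up 0.141 to 0.156% of the normalized counts in control and 0.135 to 0.152% in mutant libraries, and these ranges overlapped. The delta class sum ranged from 8458 to 9249 and from 7644 to 8882 normalized counts, with overlap as well. The genes called lower had a median control level of 435 normalized counts per kb and those not called one of 211, while the extremes, GstD8 at 44.5 and GstD1 at 9179, were both among the latter. Of 13 members with a single exon in the reference annotation 7 were called, and of 6 with introns 2.

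The standard error of the log2 change ran from 0.078 for GstD9 to 0.29 for GstD7. The median coefficient of variation over the 19 genes was 7.28% in control and 11.4% in mutant libraries. Among the 10 genes not called, 3 had an unadjusted p under 0.05 (limma), namely GstD9, GstE2 and GstS1. With the called genes included, 12 of the 19 Gst genes and 3476 of all 13035 genes had such a p.

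Delta and epsilon enzymes are made in the gut, the fat body and the Malpighian (renal) tubules, among other tissues, and markers of these tissues moved unevenly. Of 10 midgut markers 6 fell (60%) and 1 rose (10%), against 9.47% lower and 4.73% higher over all genes. The midgut markers summed to 85765 to 90013 normalized counts in control and 62011 to 79767 in mutant libraries. Among 4 measured fat body markers 3 fell (75%), with summed levels of 68116 to 84019 and 40489 to 53022. The 7 tubule markers held 1 lower and 1 higher gene (14.3% each) and summed to 8420 to 8999 and 8336 to 9632. None of the markers was at 0 in all libraries. The part of these tissues in the falls of the Gst genes was not tested.

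Among the 14 glutathione S-transferase genes listed under CG numbers, 3 fell (21.4%) and 2 rose (14.3%), against 9.47% and 4.73% of all genes, and the median log2 change was -0.06. GstT3 (CG1702) and GstT4 (CG1681), theta class genes on the X chromosome, fell by 0.56 ± 0.08 and 0.37 ± 0.09 (log2, SE; adjusted p = 9.74e-04 and 1.67e-02, limma). GstT3 had 776, 724 and 686 normalized counts in control and 530.5, 483 and 465 in mutant libraries, without overlap. GstT4 was not called without control 1, control 3 or mutant 3, the highest adjusted p being 7.11e-02. The theta genes on 2R, GstT1 (CG30000) and GstT2 (CG30005), were not called, with log2 changes of -0.16 ± 0.09 and -0.08 ± 0.11.

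GstZ2 (CG9363) belongs to the zeta class, whose enzyme in other animals is maleylacetoacetate isomerase of tyrosine breakdown. It rose from 368, 348 and 348 to 599, 530.0 and 512 normalized counts, by 0.62 ± 0.09 (log2, SE; adjusted p = 6.32e-04, limma). Its neighbour GstZ1 (CG9362) changed by 0.03 ± 0.16. The rise of GstZ2 was the largest among the 33 genes of both name groups.

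Of the omega class, known for reducing dehydroascorbate and glutathione mixed disulfides, GstO2 (CG6673) fell by 0.24 ± 0.07 (log2, SE; adjusted p = 4.85e-02, limma), whereas GstO1 (CG6662, 0.04 ± 0.11) and GstO3 (CG6776, -0.04 ± 0.07) were not called. GstO2 overlaps the gene se by 61 bases on the other strand, and se had 17.6% of its level. GstE11 (CG5224) rose by 0.41 ± 0.11 (adjusted p = 3.53e-02, limma). Leaving out any one library ended both of these calls (adjusted p from 5.87e-02 to 0.145 for GstO2 and from 5.42e-02 to 0.110 for GstE11). With all libraries kept, GstO2 was not called with limma-voom or with scaling to the total, the upper quartile or by quantiles (adjusted p from 0.0505 to 0.175). GstE11 was not called with scaling to ribosomal protein genes (adjusted p = 0.229, limma). In the authors' deposited table (DESeq2) their adjusted p were 0.0694 and 0.154. GstE14 (CG4688), known as noppera-bo for its role in ecdysone synthesis, changed by -0.28 ± 0.22 (95% interval -0.77 to 0.21). The authors' deposited table called 2 of the 14 genes lower and 1 higher, against 9.04% and 4.49% of all genes in that table.

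**Figure D4:**
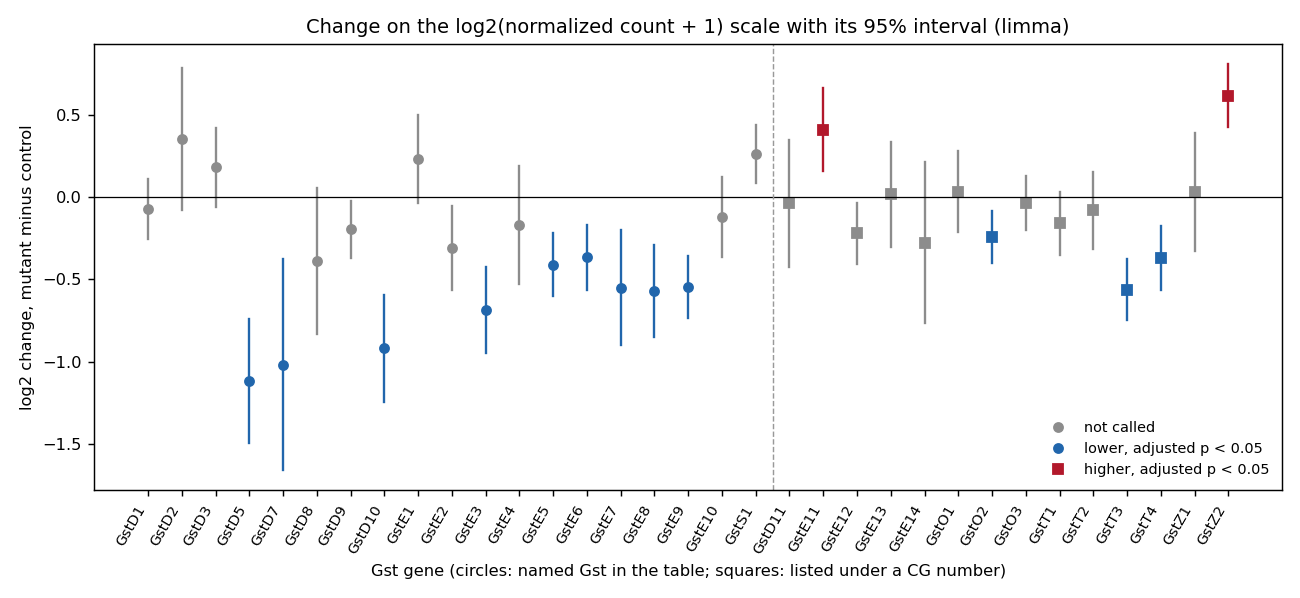
Log2 change (mutant minus control) with its 95% interval from limma for the 19 genes named Gst in the table (circles) and the 14 listed under CG numbers (squares, shown under current names), blue where called lower, red where called higher. The lowest estimate is that of GstD5 (-1.12) and the highest that of GstZ2 (0.62).

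Other genes of glutathione metabolism were taken from a list of 20, of which 17 were measured. Of these 3 fell (17.6%) and 1 rose (5.88%), against 9.47% and 4.73% of all genes, and the median log2 change was -0.13. The microsomal glutathione S-transferase Mgstl fell by 0.48 ± 0.08 (log2, SE; adjusted p = 2.03e-03, limma), the gamma-glutamyl transpeptidase Ggt-1, which breaks glutathione down outside cells, by 0.44 ± 0.07 (adjusted p = 1.41e-03, limma) and the glutathione-dependent formaldehyde dehydrogenase Fdh by 0.36 ± 0.07 (adjusted p = 5.26e-03, limma). Gclc, the catalytic subunit of glutamate-cysteine ligase and thus the first step of glutathione synthesis, rose by 0.34 ± 0.08 (adjusted p = 1.78e-02, limma). Without control 2, control 3 or mutant 1, and with scaling to ribosomal protein genes, Gclc was not called. The regulatory subunit Gclm changed by -0.13 ± 0.07 (adjusted p = 0.279, limma) and the thioredoxin reductase Trxr-1, which recycles glutathione in the fly, by -0.15 ± 0.07 (adjusted p = 0.223, limma).

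Of the 9 Gst genes called lower, 5 were called in each of the 15 alternative fits, namely GstD5, GstD10, GstE3, GstE5 and GstE9. The count fell to 5 of 19 without control 3, where GstD7, GstE6, GstE7 and GstE8 were lost and GstS1 was called higher. Leaving out mutant 1, the mutant library with the highest summed epsilon level, gave 9.

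**Figure D5:**
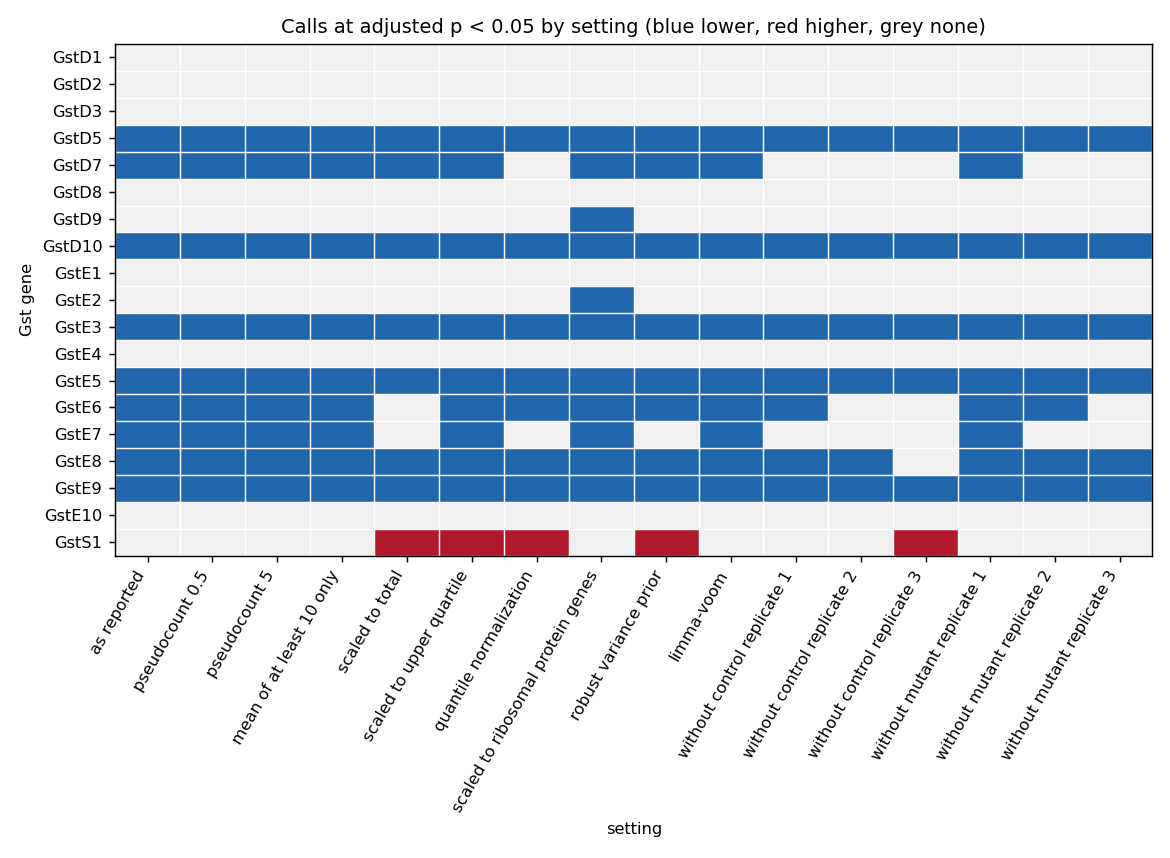
Calls of the 19 Gst genes (vertical axis) in the reported fit and 15 alternative fits (horizontal axis), with blue for lower, red for higher and grey for no call at an adjusted p under 0.05 (limma). GstD5, GstD10, GstE3, GstE5 and GstE9 are blue throughout, and GstS1 is red in 5 fits.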

How the data were processed

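The deposited table gives normalized counts (a signal that is never negative) for 6 libraries of poly(A)-selected, stranded RNA. The submitters' processing notes name Novoalign, DESeq2 and dm3. Counting tool, strand setting, treatment of reads shared by near-identical genes and gene models were not given in the sources used here. Neighbouring Gst paralogs may therefore share reads. Per the file headers, the deposited log2 fold changes, their standard errors, Wald scores (stat) and p-values are those of the authors' comparison, and 8 genes have no p-value there.

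Each column held whole multiples of one step (tolerance 1e-06), which gave reads per library. In 3 columns the step was too close to 1 for a check of units, so the test planned for tables without counts was used: limma-trend (limma 3.58.1, R 4.3.3) on log2(normalized count + 1), a group term only, no filter, Benjamini-Hochberg adjustment over 13035 genes, threshold 0.05. Fold changes on this scale understate those of genes with few reads. The method was tested on simulated data. Chi-square per gene between replicates was 7.13 to 13.7 (sampling alone gives 1; at least 20 reads), so none was counted as a repeat. Tables and figures used Python 3.11.15, pandas 2.3.3, numpy 2.4.6 and matplotlib 3.10.9.

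Starts in the deposited coordinates count from 0 (end minus start equals the annotated span for 5709 genes, and 1 less than it for 162) and are printed counted from 1. Levels per kb use the exon length of Ensembl release 115, no longer than the deposited span. Current names come from a name table holding 12526 of the 13035 identifiers. Members and lists were chosen with earlier results of these data known. Values in every library are given for the called genes among the 19 and, among these 19, for the highest per length of each class. Of the glutathione list, changes are given for up to 4 called genes a direction. GstD2, GstE1, GstT3 and GstZ2, among others, were added after their values were seen.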

Additional observations from a re-analysis of the deposited data

How the results depend on the processing

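The 15 alternatives were pseudocounts of 0.5 and 5, a mean of at least 10 normalized counts, 4 scalings, a robust variance prior, limma-voom, and leaving out each library. No paired analysis was possible because no label pairs a control with a mutant library, and the numbers used here are names in accession order. The number of Gst genes called lower ranged from 7 to 11 over the settings that kept all libraries and from 5 to 9 when 1 library was left out (delta 2 to 4 and 2 to 3, epsilon 4 to 7 and 3 to 6). The number higher, which concerns GstS1 alone as the single gene outside the delta and epsilon classes, was 1 with scaling to the total, to the upper quartile, by quantiles and with a robust prior, and 0 to 1 without 1 library. With ribosomal protein gene scaling 7 genes of the glutathione list were lower and 0 higher, against 3 lower and 0 to 1 higher without 1 library. Of the genes listed under CG numbers 1 was higher with scaling to ribosomal protein genes, and 1 to 2 were lower and 1 was higher without 1 library. Over all genes 1293 were higher with scaling to the total, 206 higher and 2069 lower with ribosomal protein gene scaling, and 330 to 563 were higher and 926 to 1139 lower without 1 library. Scaling to ribosomal protein genes moved the median of all genes from 0.0029 to -0.16, and the median of the Gst genes relative to it was -0.37 under both. The 92 ribosomal protein genes were not level in the reported fit, where 87 had positive estimates and their median log2 change was 0.16. Every mutant library lay above every control library for 57.6% of them, against 15.7% of all genes. Of the 19 genes 18 kept the sign of their change in all 15 fits, and GstD1, not called in any, did not. GstD7, GstD2 and GstD8 had the fewest reads of the 19 genes, each with at most 51 in a library.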
